A study of Canis lupus familiaris with 20 samples.

Results

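The genes described here are the lysosomal cathepsins CTSB, CTSC, CTSD, CTSH, CTSK, CTSL, CTSS and CTSZ and the lysozyme gene LYZ, measured in dog retina after injection of ciliary neurotrophic factor (CNTF) into the eye. A probe belonged to a gene if the array files gave it that gene's name or if its description named the gene. By this rule 8 of the 9 listed genes had a probe, with 15 probes among the 43603 of the array, and 8 genes among the 13228 that could be named. CTSL had no probe under its own name. A pair of probes named CTSL2 in the files is given apart, because the RefSeq gene table of the assembly UU_Cfam_GSD_1.0 lists that name as a synonym of a pseudogene entry on chromosome X, LOC403708. A probe for the separate milk lysozyme gene LYZF2 was well above background on 4 arrays and was not tested.

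Each of 10 dogs of a research colony received 12 µg of CNTF in the right eye and phosphate-buffered saline (PBS) in the left, and both retinas were collected 1 week later. The 5 mutant dogs were CNGB3m/m with the D262N missense mutation, which alters a subunit of the ion channel that carries the light response of cones (2 males, dogs 1 and 4, and 3 females). The 5 normal dogs were all male, and 4 of them were carriers (CNGB3+/m) while dog 3 was CNGB3+/+. Age entered no fit, because the sample labels (8.9 weeks for normal dogs, 10.7 to 11.5 weeks for mutants) contradict the design text (11 months for all). The 4 groups of 5 retinas are called PBS normal, CNTF normal, PBS mutant and CNTF mutant. Retinas with the same number in the sample titles were taken as both eyes of a dog. Genotype, sex and the labelled age therefore differed together between normal and mutant dogs.

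Every retina had an array of its own, in a single colour, and values are log2 signals relative to the array's own 75th percentile, so that 0 is the level of that percentile. The 75th percentile itself lay between 291 and 592.5 intensity units, and 52.2 to 71.9% of probes were well above background per array. The 20 arrays lay on 5 slides, and only slide 3 held both treatments, namely the CNTF eyes of normal dogs 1 and 2 and the PBS eyes of mutants 4 and 5. For each gene's main probe, defined below, results with the slide as a block are given where they end a call. Calls in the gene and marker lists are from the fit with the dog as a block only. With the slide as the block, calls over all probes fell from 15011 to 1152 in normal dogs and from 8471 to 809 in mutants. The 8 photoreceptor markers that mark the labelled tissue were all well above background on every array. Whether more cells of a type or more RNA per cell lie behind a higher signal cannot be told apart in whole retina.

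Cathepsins are proteases made as inactive precursors, sorted to lysosomes and activated at acid pH. Most of those described here are cysteine proteases of the papain family, while CTSD is an aspartic protease. Lysozyme cleaves bacterial cell walls and is stored in the granules and lysosomes of macrophages and neutrophils. In the retina, lysosomal proteolysis is best known from the pigment epithelium, which digests shed photoreceptor outer segments, and from microglia, the resident phagocytes.

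The following probes, 60 bases long and written 5′ to 3′, are shown for comparison between related proteases. Among 125 pairs of probes for different genes the longest shared run was 10 bases, between a CTSB and a CTSS probe, and it is in capitals. Probes of the same gene can share as little, 6 bases for CTSB and 5 for LYZ, so short runs do not measure specificity. Binding of a probe to transcripts of related genes was not tested.
CTSB, second probe: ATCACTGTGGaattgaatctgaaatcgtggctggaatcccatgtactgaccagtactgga
CTSS: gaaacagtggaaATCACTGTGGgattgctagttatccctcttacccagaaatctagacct
CTSH: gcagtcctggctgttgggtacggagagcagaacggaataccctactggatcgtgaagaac
CTSK, second probe: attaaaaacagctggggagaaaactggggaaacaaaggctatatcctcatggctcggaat
CTSD: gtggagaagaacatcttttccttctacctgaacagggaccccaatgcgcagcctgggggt
CTSZ, a further probe: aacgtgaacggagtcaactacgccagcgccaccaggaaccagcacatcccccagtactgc
CTSL2, second probe: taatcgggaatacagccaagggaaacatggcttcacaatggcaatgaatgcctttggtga

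On canFam2 coordinates from the array files, the CTSB probe lies at chr25:29041324-29041383, plus strand, and the CTSS probe at chr17:62973709-62973768, minus strand. The CTSD probe spans chr18:49038924-49040482, minus strand, which is 1559 bases for a probe of 60, and the CTSK probe chr17:63008856-63010773, minus strand, or 1918 bases. The CTSH probe lies at chr3:60977388-60977447, plus strand, the CTSZ probe at chr24:46730321-46730380, minus strand, and the CTSL2 probe at chrX:40791840-40791899, plus strand. Which exon or untranslated part each probe covers was not assigned here. For every gene with several probes, the one with the highest mean signal over the 20 arrays was used as its main probe, and all main probes were well above background and below saturation on every array.

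CNTF eyes had higher levels of 6 of the 8 genes in both normal and mutant dogs, and none was lower. The 6 were CTSC, LYZ, CTSS, CTSZ, CTSH and CTSB, and for each of them the CNTF eye was the higher in all 5 dogs of each genotype. CTSC rose most, 12.0-fold in normal and 11.1-fold in mutant dogs, and CTSB least, 1.91-fold and 1.44-fold. CTSD and CTSK did not pass the test in either genotype. For comparison, of all 29332 probes tested 23.6% were called higher and 27.6% lower in CNTF eyes of normal dogs, and 11.6% higher and 17.3% lower in those of mutants (limma with the dog as a block, Benjamini-Hochberg adjusted p under 0.05). All CNTF eyes lay above all PBS eyes for 6 genes in normal dogs (14.2% of all probes) and for 4 in mutants (6.88%). The median change of the 8 genes was 1.60 log2 units in normal dogs and 1.27 in mutants, beside -0.09 for all probes in both. With the slide in place of the dog as the block, 2 of the 8 genes were called in each genotype, CTSC and LYZ.

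**Figure D1:**
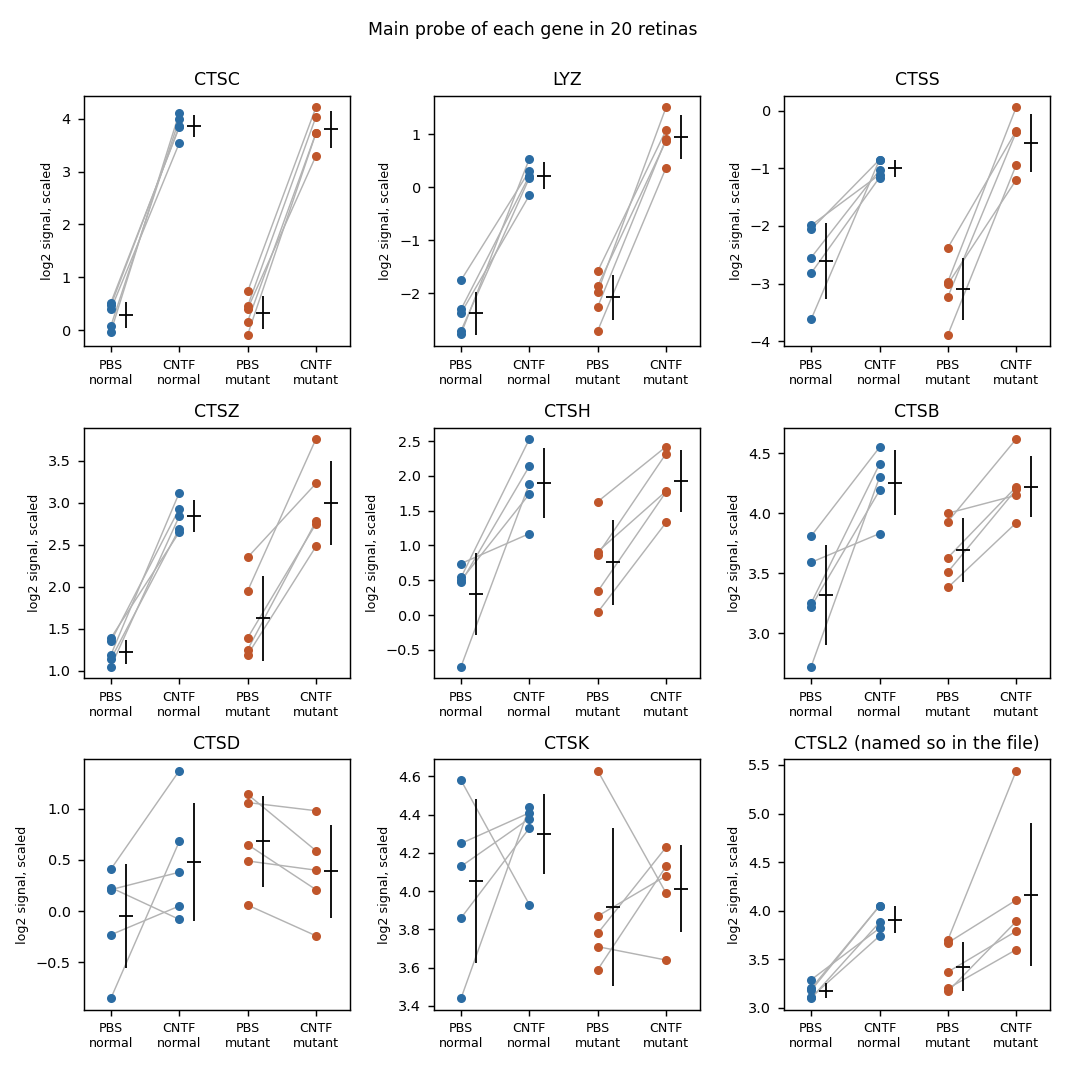
Levels of the main probe of each gene in 20 retinas, as log2 signal relative to the array's 75th percentile (vertical axis, scaled separately per gene), in the 4 groups of 5. Points are retinas, grey lines join both eyes of a dog, and black bars are the mean and SD. The CNTF and PBS points are apart for CTSC, LYZ, CTSS and CTSZ in both genotypes and mixed for CTSD and CTSK.

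CTSC encodes dipeptidyl peptidase 1, which removes dipeptides from the ends of proteins and activates the granule proteases of neutrophils, mast cells and cytotoxic lymphocytes. Its main probe (chr21:14689897-14689956, plus strand) gave 0.47, 0.52, 0.08, 0.39 and -0.03 in the PBS eyes of normal dogs 1 to 5 and 3.86, 3.84, 3.99, 3.54 and 4.11 in their CNTF eyes. In mutant dogs 1 to 5 the values were -0.09, 0.73, 0.16, 0.45 and 0.40 with PBS and 3.73, 4.22, 3.73, 4.04 and 3.30 with CNTF. No CNTF eye of either genotype came near a PBS eye: the smallest gap between the groups was 2.57 log2 units, in mutants. In the paired fit, here and below, the SE of a change comes from 1 spread per probe that is shared by both genotypes. The change was 3.58 ± 0.16 log2 units (SE, n = 5 dogs, limma adjusted p = 1.52e-07) in normal dogs and 3.47 ± 0.16 (n = 5, limma adjusted p = 2.38e-07) in mutants. With the slide as a block it was 3.72 ± 0.46 and 3.27 ± 0.46, still called in both. Both values contain the difference within slide 3, where the CNTF arrays lay 3.42 above the PBS arrays. A second CTSC probe (chr21:14690600-14690659) was well above background on only 2 arrays, both CNTF normal, and was not tested.

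LYZ followed at a lower fold. Its main probe (chr10:14335468-14335527, plus strand) gave -2.76, -2.70, -2.30, -1.75 and -2.37 in PBS eyes of normal dogs and 0.54, 0.18, 0.22, 0.31 and -0.15 in CNTF eyes. Mutant dogs had -2.25, -1.58, -2.70, -1.97 and -1.86 with PBS and 0.91, 1.08, 0.37, 1.51 and 0.88 with CNTF. The treatments did not overlap in either genotype, and CNTF mutant 4 was the highest of all retinas. The signal was 6.06-fold higher in normal dogs (2.60 ± 0.18 log2 units, SE, limma adjusted p = 1.53e-06) and 8.14-fold in mutants (3.02 ± 0.18, limma adjusted p = 8.6e-07). With normexp background correction the change in mutants was 2.21 ± 0.16, still called. A second LYZ probe (chr10:14334805-14334864) gave changes of 2.53 and 3.11 and was called in both. The slide block left 2.47 ± 0.61 in normal dogs (limma adjusted p = 0.0321) and 3.06 ± 0.61 in mutants (limma adjusted p = 0.0115).

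CTSS is the protease that trims the invariant chain from class II histocompatibility molecules in antigen-presenting cells, and unlike most cathepsins it stays active at neutral pH. In PBS eyes of normal dogs its signal, from the probe printed above, was -3.62, -2.82, -2.06, -1.99 and -2.55, and in their CNTF eyes -0.85, -1.16, -0.85, -1.11 and -1.03. In PBS eyes of mutants it was -3.01, -3.23, -3.89, -2.97 and -2.38, and in CNTF eyes -1.20, -0.37, -0.94, 0.06 and -0.35. The groups did not overlap by treatment, and the CNTF eyes of normal dogs lay closer together than those of mutants. The change was 1.61 ± 0.26 log2 units in normal dogs (3.05-fold, limma adjusted p = 0.000632) and 2.53 ± 0.26 in mutants (5.79-fold, limma adjusted p = 3.14e-05). With normexp background correction the change in mutants was 1.58 ± 0.17, still called. Neither change was called with the slide as a block (0.84 ± 0.70, limma adjusted p = 0.506, and 1.46 ± 0.70, limma adjusted p = 0.401), and the difference within slide 3 was 1.67.

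CTSZ, a carboxypeptidase abundant in phagocytes, was measured by 4 probes. The main probe (chr24:46723671-46723730, minus strand) gave 1.35, 1.39, 1.05, 1.14 and 1.19 in PBS normal eyes and 2.93, 2.65, 2.84, 2.69 and 3.12 in CNTF normal eyes. PBS mutant eyes had 1.25, 2.35, 1.39, 1.95 and 1.19, and CNTF mutant eyes 2.78, 3.23, 2.75, 3.76 and 2.48. CNTF eyes were above all PBS eyes of the same genotype, with mutants 2 and 4 highest under both treatments. The signal was 3.08-fold higher in normal dogs (1.62 ± 0.14 log2 units, limma adjusted p = 6.12e-06) and 2.59-fold in mutants (1.37 ± 0.14, limma adjusted p = 2.48e-05), but the slide block gave 1.69 ± 0.61 (limma adjusted p = 0.147) and 1.11 ± 0.61 (limma adjusted p = 0.497).

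The further CTSZ probes were all called as well, at 1.93, 2.09 and 1.55 log2 units in normal dogs and 1.38, 1.43 and 1.16 in mutants. With the slide as a block none of them was called. The limma adjusted p was then 0.147 to 0.239 in normal dogs and 0.725 to 0.788 in mutants. Of the further probes, 2 overlap by 45 bases (chr24:46724006-46724065 and chr24:46724021-46724080) and differ within the overlap at 1 base, T21A, counted from the 5′ end of the first. The 30 bases around it are shown with the differing base in capitals.
First probe: tatcgtgaatcacagTcagagggggtccca
Second probe: tatcgtgaatcacagAcagagggggtccca
The first of them gave 1.93 in normal and 1.38 in mutant dogs, and the second 2.09 and 1.43, so both designs measured a rise of like size. In mutants the treatments overlapped on both, with gaps of -0.24 and -0.03 log2 units. On the remaining further probe they were apart by 0.06 there, and on the main probe by 0.13. After each group's mean was taken out, the 4 probes correlated over the 20 arrays at r = 0.89 to 0.98.

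CTSH is an aminopeptidase that also processes surfactant proteins in the lung. Its values were 0.47, 0.74, -0.74, 0.50 and 0.54 in PBS normal eyes and 2.14, 1.17, 1.89, 1.74 and 2.53 in CNTF normal eyes. Mutants had 0.34, 0.87, 0.91, 1.63 and 0.04 with PBS and 1.77, 2.32, 1.78, 2.42 and 1.33 with CNTF. In normal dogs the treatments did not overlap, whereas in mutants PBS eye 4 reached above CNTF eye 5. The signal rose 3.01-fold in normal dogs (1.59 ± 0.25 log2 units, limma adjusted p = 0.000545) and 2.24-fold in mutants (1.17 ± 0.25, limma adjusted p = 0.00502). The call ended with the slide as a block (0.99 ± 0.84 and 0.54 ± 0.84) and, in mutants, with males only (1.11 ± 0.45, limma adjusted p = 0.169, 2 dogs).

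CTSB, among the most abundant lysosomal proteases in many tissues, had the smallest of the called changes. The main probe (chr25:29042224-29042283, plus strand) gave 3.81, 3.59, 2.72, 3.22 and 3.25 in PBS normal eyes and 4.55, 3.83, 4.30, 4.19 and 4.41 in CNTF normal eyes. The corresponding values in mutants were 3.51, 3.93, 3.63, 4.0 and 3.38 with PBS and 4.2, 4.62, 4.22, 4.15 and 3.92 with CNTF. The treatments were 0.02 log2 units apart in normal dogs and overlapped in mutants, where the eyes of dog 4 differed by 0.15. The change was 0.94 ± 0.16 in normal dogs (1.91-fold, limma adjusted p = 0.00108) and 0.53 ± 0.16 in mutants (1.44-fold, limma adjusted p = 0.0324). The call in mutants ended without dog 1, 2, 3 or 5 (limma adjusted p = 0.0773 to 0.0936), without the dog block (limma adjusted p = 0.0535) and with the second probe (0.50 ± 0.19, limma adjusted p = 0.0696). In both genotypes it ended with the slide as a block (0.94 ± 0.52 and 0.40 ± 0.52).

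CTSD, the main aspartic protease of lysosomes, did not pass the test in either genotype. PBS normal eyes had 0.21, 0.23, -0.85, -0.23 and 0.41 and CNTF normal eyes 0.38, -0.08, 0.68, 0.05 and 1.37. PBS mutant eyes had 0.49, 1.06, 0.65, 1.14 and 0.06 and CNTF mutant eyes 0.40, 0.98, 0.21, 0.59 and -0.24. The groups overlapped throughout, with the signal higher in the CNTF eye of 4 of 5 normal dogs and lower in that of all 5 mutants. The difference was 0.53 ± 0.22 log2 units in normal dogs (95% interval 0.05 to 1.00, limma adjusted p = 0.0606) and -0.29 ± 0.22 in mutants (interval -0.77 to 0.18, limma adjusted p = 0.343). The SD of the differences between eyes was 0.72 in normal dogs and 0.21 in mutants, although the fit gave both the same SE. Without normal dog 2 the difference in normal dogs was called (0.73 ± 0.20, limma adjusted p = 0.0142), and without normal dog 3 it was 0.27 ± 0.18 (limma adjusted p = 0.239). With the slide as a block the value in normal dogs was -0.13 ± 0.74, and within slide 3 it was -0.45.

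CTSK, the collagen-degrading cathepsin best known from osteoclasts, was the other gene without a call. In PBS normal eyes it measured 3.86, 4.58, 3.44, 4.13 and 4.25, and in CNTF normal eyes 4.33, 3.93, 4.44, 4.38 and 4.41, on the main probe (chr17:63008364-63008423, minus strand). In mutants the PBS eyes had 3.78, 3.59, 3.87, 4.63 and 3.71, and the CNTF eyes 4.23, 4.13, 4.08, 3.99 and 3.64. All groups overlapped, and the extremes were single retinas rather than groups. The differences were 0.25 ± 0.22 in normal dogs (95% interval -0.23 to 0.73, limma adjusted p = 0.356) and 0.10 ± 0.22 in mutants (interval -0.39 to 0.58, limma adjusted p = 0.782). The second CTSK probe gave 0.07 and -0.12, also not called.

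**Figure D2:**
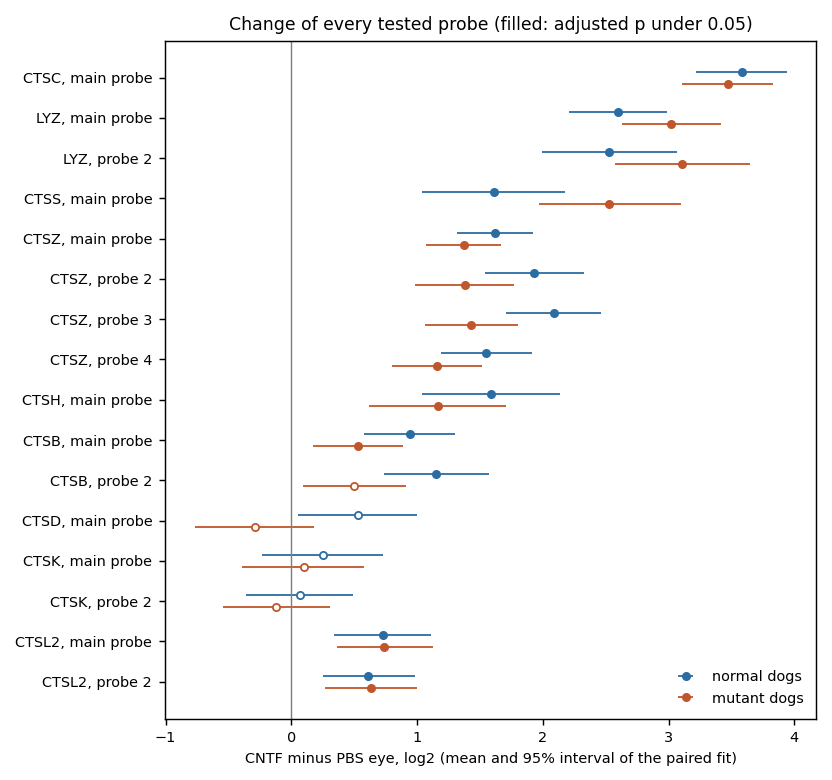
Difference between CNTF and PBS eyes (horizontal axis, log2 units) for every tested probe of each gene, with the 95% interval of the paired fit, in normal (blue) and mutant dogs (orange). Filled points passed an adjusted p under 0.05; probes of the same gene lie near each other, and only CTSB has probes that differ in their call, in mutants (0.53 for the main probe and 0.50 for the second).

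The main probe named CTSL2 (chrX:40792648-40792707, plus strand) gave 3.1, 3.29, 3.18, 3.11 and 3.20 in PBS normal eyes and 3.88, 3.82, 4.05, 3.74 and 4.05 in CNTF normal eyes. PBS mutant eyes had 3.17, 3.67, 3.20, 3.70 and 3.37 and CNTF mutant eyes 3.89, 4.11, 3.60, 5.44 and 3.79. The treatments were apart in normal dogs and overlapped in mutants, and CNTF mutant 4 stood above all other retinas. The change was 0.73 ± 0.18 log2 units in normal dogs (limma adjusted p = 0.00606) and 0.74 ± 0.18 in mutants (limma adjusted p = 0.00853), and 0.50 ± 0.11 in mutants without dog 4 (limma adjusted p = 0.00834). With the slide as a block it was 0.46 ± 0.63 and 0.26 ± 0.63, not called. Whether these probes report a functional cathepsin L transcript was not tested.

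The slide and the treatment were nearly the same division of the arrays, so that their effects can be parted only through few arrays. Both slide-block values of a gene contain the same difference within slide 3. It compares the CNTF eyes of normal dogs 1 and 2 with the PBS eyes of mutants 4 and 5. The value for normal dogs adds the genotype difference within slide 2, and that for mutants the one within slide 4. Slide-block calls in both genotypes are therefore not independent of each other. Values with the slide as a block had standard errors of 0.46 to 0.84 for the 8 genes, against 0.14 to 0.26 with the dog as a block. Signs were positive in both genotypes for CTSC, LYZ, CTSS, CTSZ, CTSH and CTSB and negative in both for CTSD and CTSK.

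**Figure D3:**
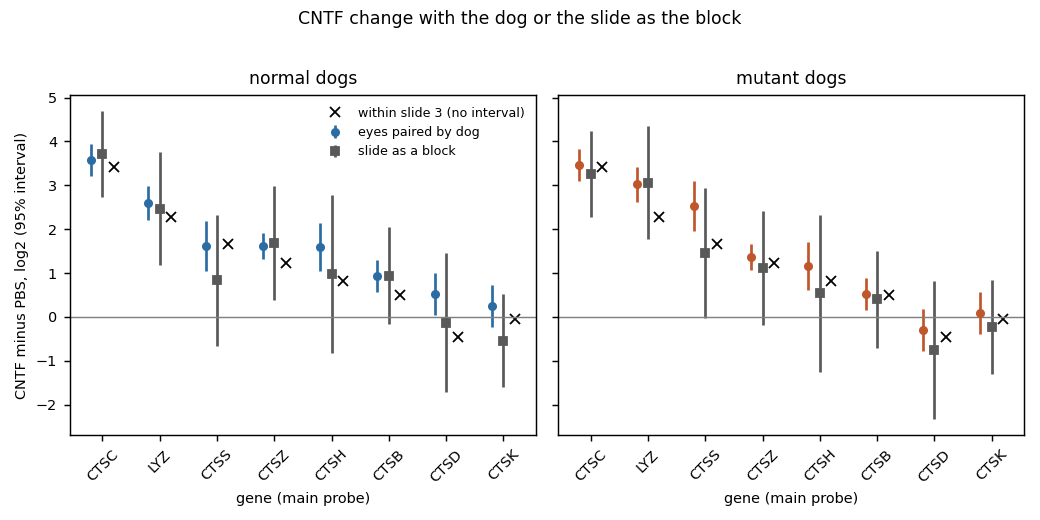
Difference between CNTF and PBS eyes (vertical axis, log2 units) for the main probe of each gene with eyes paired by dog (coloured circles), with the slide as a block (grey squares), both with 95% intervals, and within slide 3 (crosses, the same in both panels, no interval). The point values of CTSC and LYZ lie above 2 log2 units throughout, while the LYZ slide-block intervals reach down to 1.18 and 1.77. The slide-block intervals of CTSS, CTSH, CTSB, CTSD and CTSK span 0 in both genotypes and that of CTSZ in mutants. The crosses compare CNTF eyes of normal dogs with PBS eyes of mutants, and every slide-block value contains that difference.

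The response to CNTF was then compared between genotypes in the same fit. None of the 8 genes was called, and neither was any of the 29332 probes (0.00%), although 10164 probes (34.7%) had an unadjusted p under 0.05. Of the 8 main probes 2 were among the latter, CTSS and CTSD. The change of CTSS was 0.93 ± 0.36 log2 units larger in mutants (95% interval 0.12 to 1.73, limma adjusted p = 0.115), and that of CTSD differed by -0.82 ± 0.30, being lower in mutants (interval -1.49 to -0.15, limma adjusted p = 0.109). A further probe of CTSB (-0.66 ± 0.27, limma adjusted p = 0.12) and one of CTSZ (-0.65 ± 0.24, limma adjusted p = 0.107) were under 0.05 unadjusted too. For CTSC, with the largest response, the difference was -0.11 ± 0.23 (interval -0.62 to 0.40, limma adjusted p = 0.738).

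In PBS eyes none of the 8 genes was called between mutant and normal dogs. Over all probes 0.0272% of 29429 were called, but 6297 of 29394 without normal dog 1. With all dogs, the main probe of 1 of the 8 genes had an unadjusted p under 0.05, against 34.6% of all probes. It was CTSD, at 0.73 ± 0.27 log2 units higher in mutants (95% interval 0.13 to 1.32, limma adjusted p = 0.106). The value was 0.32 ± 0.51 with the slide as a block, which here compares arrays within slide 2, where normal dog 5 is the only normal dog. Further probes of CTSB (0.66 ± 0.22) and CTSZ (0.76 ± 0.28, 0.78 ± 0.25 and 0.53 ± 0.22) were also under 0.05 unadjusted, with limma adjusted p = 0.0953 to 0.12. For CTSC the difference was 0.05 ± 0.17 (interval -0.34 to 0.43). In CNTF eyes again none was called, with 0.00681% of 29356 probes called and 5.6% under 0.05 unadjusted. LYZ was 0.73 ± 0.20 log2 units higher in the mutants' CNTF eyes (interval 0.28 to 1.18, unadjusted p = 0.00445 and adjusted p = 0.63 in limma). It was 0.78 ± 0.40 higher within slide 4, where mutant 1 is the only mutant, so that this value rests on a single mutant retina. The second LYZ probe gave 0.71 ± 0.23, and the genotypes overlapped between CNTF normal 1 and CNTF mutant 3.

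Among retinas of the same group the genes moved partly together. After removal of the group means, the correlation over 20 arrays from 10 dogs was r = 0.88 between CTSD and CTSH and 0.81 between CTSB and CTSH. It was 0.75 between CTSC and CTSZ and 0.70 between CTSS and LYZ. With the rest of the 8 genes CTSS gave -0.41 (CTSB) to 0.06 (CTSZ) and LYZ -0.10 (CTSK) to 0.40 (CTSZ). The arrays share each retina's RNA and slide, and the 75th percentile scaling acts on all genes alike. PBS normal 3 was the lowest of its group for 5 of the 8 genes, CNTF normal 2 and CNTF mutant 5 for 6 each, and CNTF mutant 4 the highest for 4. Among 7478 genes searched, the gene most like each member by the same measure was FTL for CTSB (r = 0.95), encoding ferritin light chain. It was POLE4 for CTSD (0.95), PTPRF for CTSH (0.95), PERP for CTSK (0.94) and MAOB for CTSZ (0.96). Second in rank were SMPD1 for CTSD (0.94), the acid sphingomyelinase, NPC2 for CTSH (0.92), a lysosomal cholesterol carrier, and PLBD1 for CTSK (0.93). At the same rank stood POLA2 for CTSB (0.92), MTA2 for CTSC (0.90) and BMS1 for CTSS (0.88). For CTSZ the gene was MYL12A (0.96) and for LYZ RRAGB (0.80). For CTSC the first was DKKL1 (0.91), for CTSS SGCE (0.90) and for LYZ GUCY1A1 (0.80).

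Other proteases of the same compartment gave a mixed picture. The counts of this and the following lists stand beside 23.6% of all probes called higher and 27.6% lower in normal dogs. In mutants these shares were 11.6% and 17.3%. Of 6 further cathepsins and legumain genes measured, 3 were higher and 1 lower in CNTF eyes of normal dogs, and 2 were higher and 1 lower in mutants. LGMN, the asparaginyl endopeptidase that helps to activate cathepsins, rose by 1.83 ± 0.14 log2 units in normal dogs and 1.45 ± 0.14 in mutants. CTSA, the carboxypeptidase that protects beta-galactosidase, was 0.89 ± 0.14 higher in normal dogs, with 0.24 ± 0.14 in mutants (limma adjusted p = 0.245). CTSO was the gene called lower in normal dogs (-0.92 ± 0.25, limma adjusted p = 0.0123), and CTSG, a neutrophil serine protease, the one in mutants (-1.70 ± 0.27, limma adjusted p = 0.000823, well above background on 3 of 5 CNTF mutant arrays). CTSW, of T and natural killer cells, was 4.18-fold higher in normal dogs (well above background on 3 of 5 PBS arrays) and at least 2.35-fold higher in mutants, where no PBS array was well above background and the lowest detected signals set the bound. Its probe passed the filter only through CNTF arrays.

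Endogenous inhibitors of these proteases were higher for 5 of 6 measured genes in normal dogs, and for 3 of 6 in mutants with 1 lower. CSTB, a cytosolic cystatin that binds cysteine cathepsins, rose 4.07-fold in normal and 3.1-fold in mutant dogs. SERPINA3, an acute-phase inhibitor of CTSG, rose 10.5-fold (limma adjusted p = 0.00105) and 5.35-fold (limma adjusted p = 0.0106). SERPINB1, an inhibitor of neutrophil proteases, rose by 0.95 ± 0.13 and 0.59 ± 0.13 log2 units.

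Of 28 other hydrolases measured, 16 were higher and 4 lower in normal dogs (median 0.44 log2 units), and 5 were higher and 3 lower in mutants (median -0.10). FUCA1, the alpha-fucosidase, changed by 1.18 ± 0.12 and 0.67 ± 0.12 and HEXA, the alpha subunit of beta-hexosaminidase, by 1.07 ± 0.14 and 0.63 ± 0.14, called in both genotypes. Of 15 vacuolar proton pump genes, which acidify the lysosome, 10 were higher in normal dogs (median 0.50) and 3 in mutants (median -0.04), with none lower. ATP6V0A1, a membrane subunit of the pump, rose by 0.99 ± 0.13 and 0.51 ± 0.15.

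Lysosomal membrane genes were higher for 8 of 13 and lower for 2 in normal dogs, and higher for 5 and lower for 3 in mutants. LAPTM5, a membrane protein of blood-lineage cells, rose 19.3-fold in normal and 9.23-fold in mutant dogs, SLC11A1, a metal transporter of phagosomes, 6.08-fold and 5.47-fold, and CD63, a tetraspanin, 3.24-fold and 1.79-fold. Of 12 sorting receptors and transcription factors 3 were higher and 1 lower in normal dogs, and 1 was higher and 5 lower in mutants. The share called higher was thus near that of all probes in normal dogs (23.6%) and below it in mutants (11.6%). TFEB, which activates lysosomal genes, was 0.43 ± 0.13 higher in normal dogs (limma adjusted p = 0.0209), with 0.34 ± 0.13 in mutants (limma adjusted p = 0.0807). No gene of these lists was called for a difference of the response between genotypes.

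Of 3 measured genes for targets of these proteases, CD74 and GZMA were higher in both genotypes, and CTSG was lower in mutants as given above. CD74, the invariant chain that CTSS trims, rose 14.1-fold in normal dogs and 7.60-fold in mutants (3.82 ± 0.28 and 2.93 ± 0.28 log2 units). GZMA, a granule protease activated by CTSC, was well above background on no PBS array and on 4 of 5 CNTF arrays of each genotype, and was at least 5.40-fold higher in normal dogs and at least 3.21-fold higher in mutants. It entered the test only through its CNTF arrays, so its direction was set by the filter and no p is given.

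**Figure D4:**
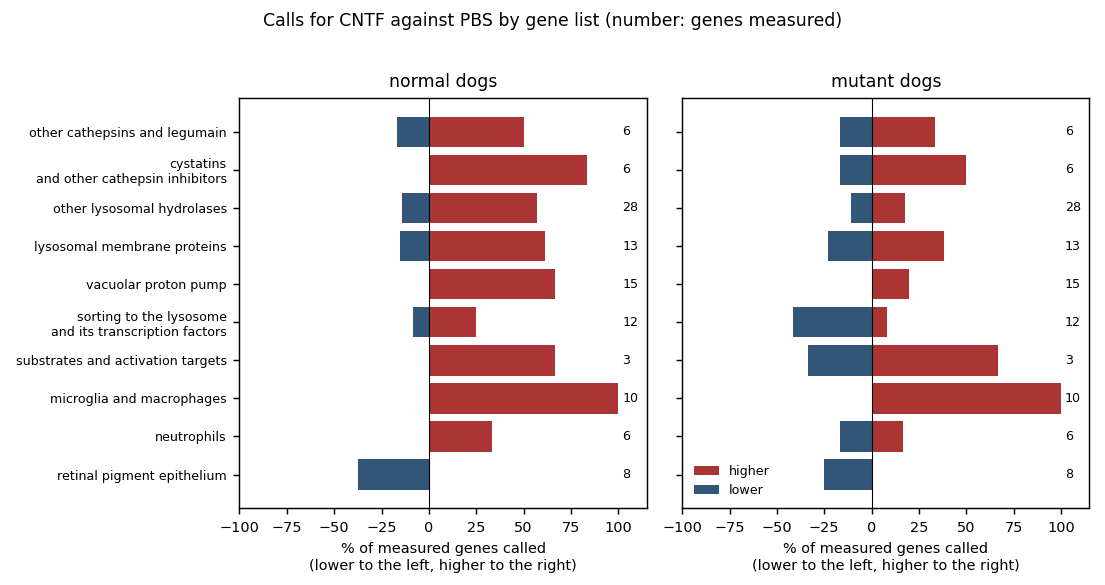
Share of the measured genes of each list (horizontal axis, percent) called higher (red, to the right) or lower (blue, to the left) in CNTF against PBS eyes of normal and mutant dogs, with the number of measured genes at the right. All 10 microglia and macrophage markers are called higher in both, and for the proton pump 10 of 15 genes in normal and 3 of 15 in mutant dogs. The bars include genes that passed the background filter only through CNTF arrays. These are 4 of the microglia and macrophage markers (CD163, CX3CR1, SPI1 and TREM2), CTSW and GZMA.

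Markers of microglia and macrophages were higher in the same CNTF eyes in which the 6 called genes were higher. Of 12 markers with a probe 10 were tested, and all 10 were called higher in both genotypes, while P2RY12 and TMEM119 were too dim to be tested. Of the 10, CX3CR1, TREM2, SPI1 and CD163 passed the filter only through CNTF arrays, and the other 6 passed it in PBS eyes as well. Summed levels are those of the whole list, not of these 6 alone, in units of the 75th percentile of each array. They were 1.63 to 2.55 in PBS normal and 17.0 to 26.9 in CNTF normal eyes. In mutants they were 2.32 to 3.98 in PBS and 18.3 to 30.9 in CNTF eyes. C1QA, a complement subunit made by microglia, rose 14.6-fold and 9.79-fold, and CSF1R, their growth factor receptor, 8.72-fold and 5.88-fold. Neutrophil markers were higher for 2 of 6 in normal dogs, and for 1 with 1 lower in mutants, and their summed level was 2.06 to 3.21, 2.52 to 2.98, 2.66 to 5.39 and 1.69 to 3.51 in the same order of groups. Pigment epithelium markers were lower for 3 of 8 in normal and 2 of 8 in mutant dogs and higher for none, beside 27.6% and 17.3% of all probes lower. Markers of T and natural killer cells, which express GZMA and CTSW, were higher for 2 and lower for 2 of 6 in normal dogs and higher for 3 and lower for 2 in mutants, with summed levels of 1.33 to 1.59, 1.80 to 2.84, 1.18 to 1.77 and 1.56 to 2.54. Müller glia markers were higher for 5 and lower for 1 of 7 in normal dogs, and higher for 2 and lower for 2 in mutants, while KCNJ10 was above background on no array. Photoreceptor markers were lower for 3 and higher for 1 of 8 in normal dogs and lower for 6 in mutants, and B cell markers lower for 2 of 4 in both. Among these, CD3D and the Müller glia marker GFAP passed the filter only through CNTF arrays. The part of these cells in the changes of the cathepsins and LYZ was not tested.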

How the data were processed

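Retinal RNA of 20 eyes was hybridised to single-colour arrays. Each file gives the signal intensity of every spot, which the authors obtained with Agilent Feature Extraction 9.5.3.1, per the file headers. The deposited matrix holds log2 values that share 1 distribution across arrays, and the submitters' processing notes name Partek 6.4; it served only as an alternative. Control spots (1417 per array) and outlier spots were left out, spots of a probe were averaged, and log2 processed signal minus the array's 75th percentile was used. A probe was kept if 4 of the 5 arrays of some group, or more, were well above background (29541 of 43603 probes), and tested given values on at least 3 arrays per group. limma 3.58.1 in R 4.3.3 fitted a block for the dog plus 1 CNTF term per genotype (20 arrays), and genotype within each treatment (10 arrays), two-sided, adjusted over all probes. Arrays of the same number were taken as both eyes of a dog, as the labelled sex, age and genotype match. Those labels do not tell apart normal dogs 1, 2, 4 and 5, or mutants 2 and 3. After group means were taken out, same-numbered arrays correlated at -0.15 to 0.29 in normal dogs and at 0.192 to 0.689 in mutants. The fits were tested on simulated data. All members with every probe are named, plus the 2 genes most like each member. Those most like CTSL2 are not printed. From each list, up to 4 genes are named in order of adjusted p. The members and lists were chosen with earlier results of these data known. Whether the dogs of a group were littermates is not given. In the paired fit, p-values rest on the spread of the differences between eyes over these dogs, which includes array noise. In the genotype fits they rest on the spread between these dogs.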

Additional observations from a re-analysis of the deposited data

Results flagged for a closer look

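In 4 of 36 groups of 5 arrays checked (8 genes and CTSL2 in 4 groups each), a single retina lay far from the others by Dixon's test, which chance does in about 1 in 20 groups. PBS normal 3 was lowest for CTSH at -0.74 log2 units, with the next at 0.47. CNTF normal 2 was lowest for CTSK at 3.93, with the next at 4.33. PBS mutant 4 was highest for CTSK at 4.63, with the next at 3.87. CNTF mutant 4 was highest for CTSL2 at 5.44, with the next at 4.11. CTSH stayed called in normal dogs without dog 3 (1.33 ± 0.23, limma adjusted p = 0.00185).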

How the results depend on the processing

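Of the 8 genes, 6 were called for CNTF against PBS in normal dogs, and 6 to 7 when each dog was left out in turn. In mutants 6 were called, and 5 to 6 with each dog left out. With the slide as a fixed block in place of the dog, 2 genes were called in normal and 2 in mutant dogs, and the calls over all probes fell from 15011 to 1152 in normal dogs (75.3% higher, against 46.0%) and from 8471 to 809 in mutants (62.8% higher, against 40.2%). As a random block in place of the dog, the slide left 6 and 6 genes and 14174 and 8394 calls over all probes, with an estimated correlation of -0.0894. Normexp background correction gave 5758 and 3296 calls (61.1% and 56.0% higher), moved the median of all probes from -0.09 to 0.09 and 0.17, and ended the CTSB and CTSL2 calls in mutants (limma adjusted p = 0.31 and 0.131). It lowered CTSS in mutants from 2.53 to 1.58 and LYZ from 3.02 to 2.21 log2 units, both still called. Males only, with 2 mutant dogs, gave 2629 calls in mutants (51.3% higher) and 4 of the 8 genes. Without the dog block 6 and 5 genes were called, only CTSB in mutants being lost, and without a filter on dim probes CTSB in mutants was lost too (limma adjusted p = 0.0649). Only probes above background on all arrays added CTSD in normal dogs (limma adjusted p = 0.0431). Counting CTSL2 as CTSL, a choice made after seeing the data, gave 7 of 9 genes. For genotype in PBS eyes, the slide as a random block gave 1 call, CTSD (0.85 ± 0.21, limma adjusted p = 0.0191), with 9941 calls over all probes against 8 and an estimated correlation of -0.178; the cause was not tested. The genotype difference in CNTF eyes and the difference of the response had 0 calls among the genes under every alternative run. No called value changed sign. Within slide 3 no test was run, and treatment and genotype cannot be told apart there. With single arrays per eye, the number of dogs limits the precision.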
